A study of Mus musculus with 29 samples.

Results

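A set of 308 chromatin regions that were less open in both kinds of Myt1l mutant was examined in embryonic mouse cortex, out of 205908 regions measured there and 443195 in both tables of the series. The regions were chosen by their measured accessibility. They had a mean over 17 libraries of 2 to under 20 CPM, the read count scaled to the size of the library, and their mean log2 CPM was lower than in wild type (WT) by at least 0.3 in heterozygous (Het) and by at least 0.3 in homozygous (Hom) mutants. The same WT libraries enter both differences. The falls in Het and in Hom are therefore given as a description of the choice, with no test read from them.

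Myt1l encodes a zinc finger transcription factor of neurons, known for repressing genes of other cell fates while neurons differentiate and mature. The cortex at this stage holds dividing progenitors and newly formed neurons. ATAC-seq uses a transposase that cuts and tags accessible DNA, so that the reads collected over a region reflect how open it is, as at active promoters and enhancers. In bulk tissue, fewer cells with an open region and a less open region in each cell cannot be told apart.

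The groups were E14.5 cortex libraries of a Myt1l knockout line: 6 WT (4 of litter 1 and 2 of litter 2), 5 Het (3 and 2) and 6 Hom (4 and 2). Each is labelled by genotype and litter, no treatment is named, and the sources used here give neither the sex of the embryos nor the structure of the allele. Nothing in the labels says that each library is a separate embryo, so p-values measure the spread between these libraries, which may be technical. Values are log2 CPM after the authors' adjustment for unwanted variation, so that spread is the one left after it. The main fit does not count what the adjustment removed. SEs, SDs within genotypes and p-values may therefore be too small. The values of each library lie on a grid with steps of 0.0501 to 0.0507 CPM, and since the depth in reads is unknown, counting intervals are left out. At the median level of the 308 regions, 2.63 CPM, 1 step equals 0.03 log2 and a fall of 0.3 log2 equals 9.75 steps. The deposited table numbers its regions and pairs them with neither genes nor coordinates. Sequences, neighbouring genes, the Myt1l locus and marker genes of the tissue were therefore not analysed here, and the genotype labels were not checked against the targeted gene.

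The 308 regions make up 0.377% of the 81607 regions at 2 to under 20 CPM. In the same range, 2407 regions met the threshold in Het and 1332 in Hom, so the shared set holds 12.8% of the Het falls and 23.1% of the Hom falls. The mirror set, at least 0.3 log2 higher in both mutants, was larger, with 707 regions, and 9 regions passed the threshold in opposite directions in Het and Hom. With the threshold at -0.4 log2 in both mutants 39 regions were left, and at -0.5 log2 there were 5. Members just inside the limits stood at -0.30004 log2 in Het, -0.30131 in Hom and 2.0005 CPM, and regions just outside at -0.29983, -0.29928 and 1.9957 CPM. Outside the range of levels, both thresholds were met by 4118 of 113511 regions under 2 CPM and by 0 of 10790 regions at 20 CPM or more.

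**Figure D1:**
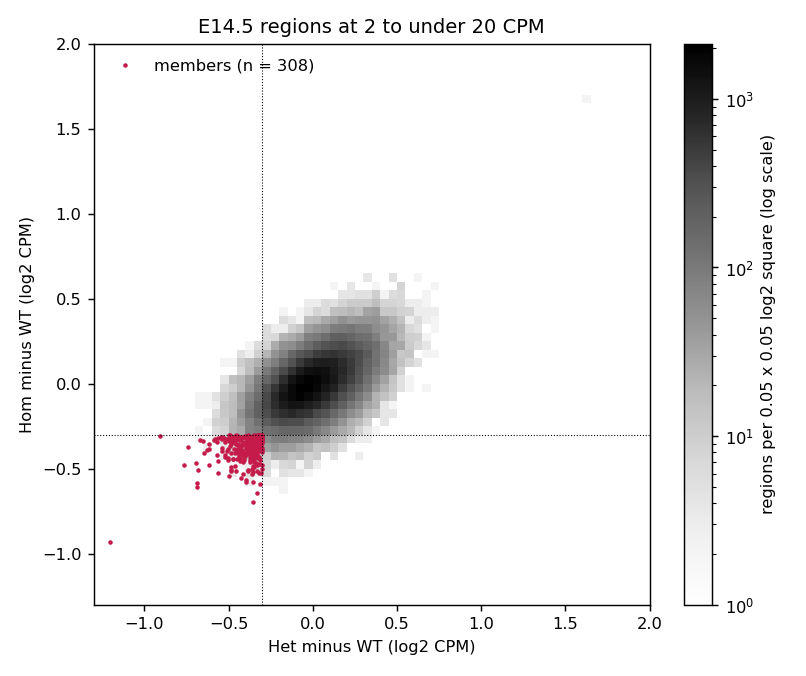
Het minus WT (horizontal axis, log2 CPM) against Hom minus WT (vertical axis, log2 CPM) for the 81607 regions at 2 to under 20 CPM. Grey squares count regions on a log scale, red points are the 308 members, and dotted lines mark -0.3 log2. The members form the lower left edge of a single cloud and most lie close to the lines; the WT libraries are shared by both axes.

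Most members fell by little more than the threshold. The Het difference had a median of -0.38 log2, with quartiles at -0.44 and -0.34 and the largest fall at -1.21. The Hom difference had a median of -0.36 log2, with quartiles at -0.41 and -0.32 and the largest fall at -0.93. Over all regions at 2 to under 20 CPM the medians were -0.01 log2 in both comparisons. In 197 of the 308 members (63.96%) at least 1 of the falls was under 0.35 log2. In levels, the median member went from 3.18 CPM in WT to 2.35 in Het and 2.38 in Hom.

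The members were regions of low accessibility within the range allowed. Of the 308, 197 (63.96%) had 2 to under 3 CPM, where 26.6% of all regions of the range lay, and 3 had 10 CPM or more. The share of regions that were members went from 0.908% at 2 to under 3 CPM to 0.407% at 3 to under 5, 0.0689% at 5 to under 10 and 0.0213% at 10 to under 20 CPM. The SD within genotypes, whose median over regions was 0.26, 0.21, 0.16 and 0.12 log2 in these 4 classes, moved the same way with level. Its part in the make-up of the set was not tested. The size of the falls was alike in the 4 classes, with medians of -0.38 to -0.35 log2 in Het and -0.36 to -0.32 in Hom. The rule cuts every class at -0.3 log2, so close medians follow in part from the choice, and the highest class held only 3 members.

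The level of the members in each library is given as a description, since these libraries chose them. Each member was set against its mean over the 17 libraries, and the median of these differences over the 308 members was taken in each library. It ran from 0.23 to 0.30 log2 in the 6 WT libraries, with a median of 0.25. In Het it was -0.09 in replicate 27, -0.12 in 31, -0.13 in 34, -0.18 in 49 and -0.16 in 64. In Hom it ran from -0.15 to -0.05, with a median of -0.12. No mutant library overlapped the WT libraries in this measure, whose values the rule used, while Het and Hom libraries overlapped each other. WT replicate 25 was the highest of all libraries, and held the highest value of the 17 at 62 members. Hom replicate 61 was the closest of the mutants to WT, at -0.05.

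**Figure D2:**
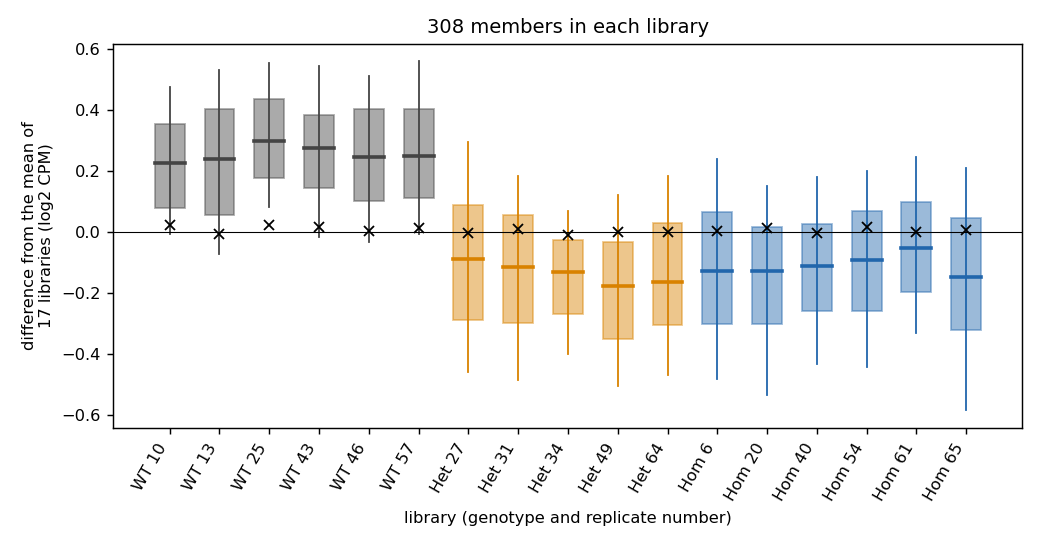
Difference of each of the 308 members from its mean over 17 libraries (vertical axis, log2 CPM) in each library (horizontal axis, genotype and replicate number). Lines in the boxes are medians, boxes run between quartiles and whiskers the 10th to 90th percentile of members; crosses give the median of all regions at 2 to under 20 CPM. The 6 WT medians, 0.23 to 0.30, lie above all 11 mutant medians; the rule chose the members on the group means of these values.

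Single members seldom kept every mutant library below every WT library. All 5 Het libraries lay below all 6 WT libraries at 52 members (16.9%), against 1.53% of the 138760 regions tested. All 6 Hom libraries lay below all WT libraries at 29 members (9.42%), against 0.324%. All 11 mutant libraries lay below all WT libraries at 13 members (4.22%), against 0.102%. The rule used these contrasts, so the shares describe the members and support nothing further.

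The widest gap of the 13 was at all_e14_peak_136199, which is named here after its values were seen. It measured 12.2 CPM in the lowest, 13.3 in the median and 14.1 in the highest WT library. The Het libraries measured 11.02, 10.5, 10.2, 9.88 and 9.22 CPM, and Hom ran from 9.53 to 11.2 with a median of 10.4. Means were 13.3 ± 0.755 CPM in WT (SD, n = 6), 10.2 ± 0.680 in Het (n = 5) and 10.4 ± 0.579 in Hom (n = 6). The fall was 0.38 log2 in Het (-0.38, SE 0.07, limma adjusted p = 0.00501) and 0.35 in Hom (-0.35, SE 0.07, limma adjusted p = 0.157). The rule chose members on the Het and Hom differences, so their p-values at this and the other named members are descriptions only. Both mutants reached about the same level at this region, without overlap with WT. In litter 1 alone the Het difference was -0.32 log2 and in litter 2 alone -0.49, neither called (limma adjusted p = 0.131 and 0.351).

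The next widest gap, at all_e14_peak_101907, also chosen after the fact, lay at a lower level. WT ran from 4.56 to 5.36 CPM with a median of 5.14. The Het libraries measured 3.16, 4.15, 4.05, 4.05 and 3.95 CPM, and Hom ran from 3.21 to 4.31 with a median of 4.01. Its differences were -0.38 log2 in Het (SE 0.11, limma adjusted p = 0.0730) and -0.39 in Hom (SE 0.11, limma adjusted p = 0.244), so that it was called in neither. The most open member, all_e14_peak_45308, was likewise named for its level after the values were seen. It ran from 12.5 to 14.4 CPM in WT, while the Het libraries measured 10.2, 10.8, 10.7, 10.2 and 11.4 CPM and Hom ran from 9.97 to 12.6. The Het fall of 0.35 log2 (-0.35, SE 0.07) was called with limma (adjusted p = 0.0118), the Hom difference of -0.31 (SE 0.07) was not (limma adjusted p = 0.157), and the highest Hom library overlapped the lowest WT library. In the fit with the removed directions as covariates, described below, its Het difference had a limma adjusted p of 0.0560, and in the single litters 0.0582 and 0.703.

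The region all_e14_peak_89098 had the largest fall in Het and in Hom. Its WT libraries measured 0.602 CPM at the lowest, 2.27 at the median and 16.9 at the highest, which was replicate 13. The Het libraries measured 1.35, 0.709, 0.608, 0.810 and 1.93 CPM, and Hom ran from 0.602 to 1.85 with a median of 1.24. The WT and mutant libraries overlapped, and the WT mean of 4.33 ± 6.23 CPM (SD, n = 6) rested on replicate 13. The differences of -1.21 log2 (SE 0.43, limma adjusted p = 0.137) and -0.93 (SE 0.41, limma adjusted p = 0.480) were not called. Without WT replicate 13 they were -0.63 in Het and -0.35 in Hom (limma adjusted p = 0.351 and 0.768), so that the rank of this region as the largest fall rested on that library. In litter 1 alone, without replicate 13, they were -0.76 and -0.17 (limma adjusted p = 0.384 and 0.942). In litter 2 alone, which holds replicate 13, they were -2.21 in Het and -2.45 in Hom and both were called (limma adjusted p = 0.0267 and 0.00652); without WT replicate 46 the Het difference was -1.59 (limma adjusted p = 0.0409).

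The second largest Het fall was at all_e14_peak_100552. WT ran from 2.06 to 3.55 CPM with a median of 2.48. The Het libraries measured 2.51, 1.42, 1.22, 1.01 and 1.06 CPM, of which the first, replicate 27, lay within WT. Hom ran from 1.50 to 3.14 CPM with a median of 2.01 and overlapped both other genotypes. The Het difference was -0.91 log2 (SE 0.21, limma adjusted p = 0.0229) and the Hom difference -0.31 (SE 0.20, limma adjusted p = 0.650), just past the threshold. This was the member that stood highest in Hom against Het, by 0.60 log2 (SE 0.21, limma adjusted p = 0.245), which was not called. The Het call was lost without any 1 of WT replicate 25 (limma adjusted p = 0.0681) and Het replicates 34 (0.0712), 49 (0.0629) and 64 (0.0613), and in either litter alone (0.275 and 0.201).

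The second largest Hom fall was at all_e14_peak_189335, which also stood lowest in Hom against Het. WT ran from 2.28 to 3.56 CPM with a median of 2.86. The Het libraries measured 2.76, 2.33, 2.13, 2.38 and 1.77 CPM, and Hom ran from 1.50 to 1.98 with a median of 1.79. Every Hom library lay below every WT library, while Het overlapped both. The differences were -0.35 log2 in Het (SE 0.15, limma adjusted p = 0.221), -0.70 in Hom (SE 0.14, limma adjusted p = 0.157) and -0.34 between Hom and Het (SE 0.15, limma adjusted p = 0.366), and none was called. A like order of means was seen at all_e14_peak_41828, the next lowest in Hom against Het, with 2.56 ± 0.183 CPM in WT (SD, n = 6), 2.06 ± 0.423 in Het (n = 5) and 1.65 ± 0.269 in Hom (n = 6). Its Het libraries measured 1.75, 1.93, 2.43, 1.62 and 2.58 CPM and overlapped WT (2.31 to 2.79) and Hom (1.22 to 2.03), and Hom did not overlap WT. Hom minus Het was -0.31 log2 there (SE 0.16, limma adjusted p = 0.458).

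**Figure D3:**
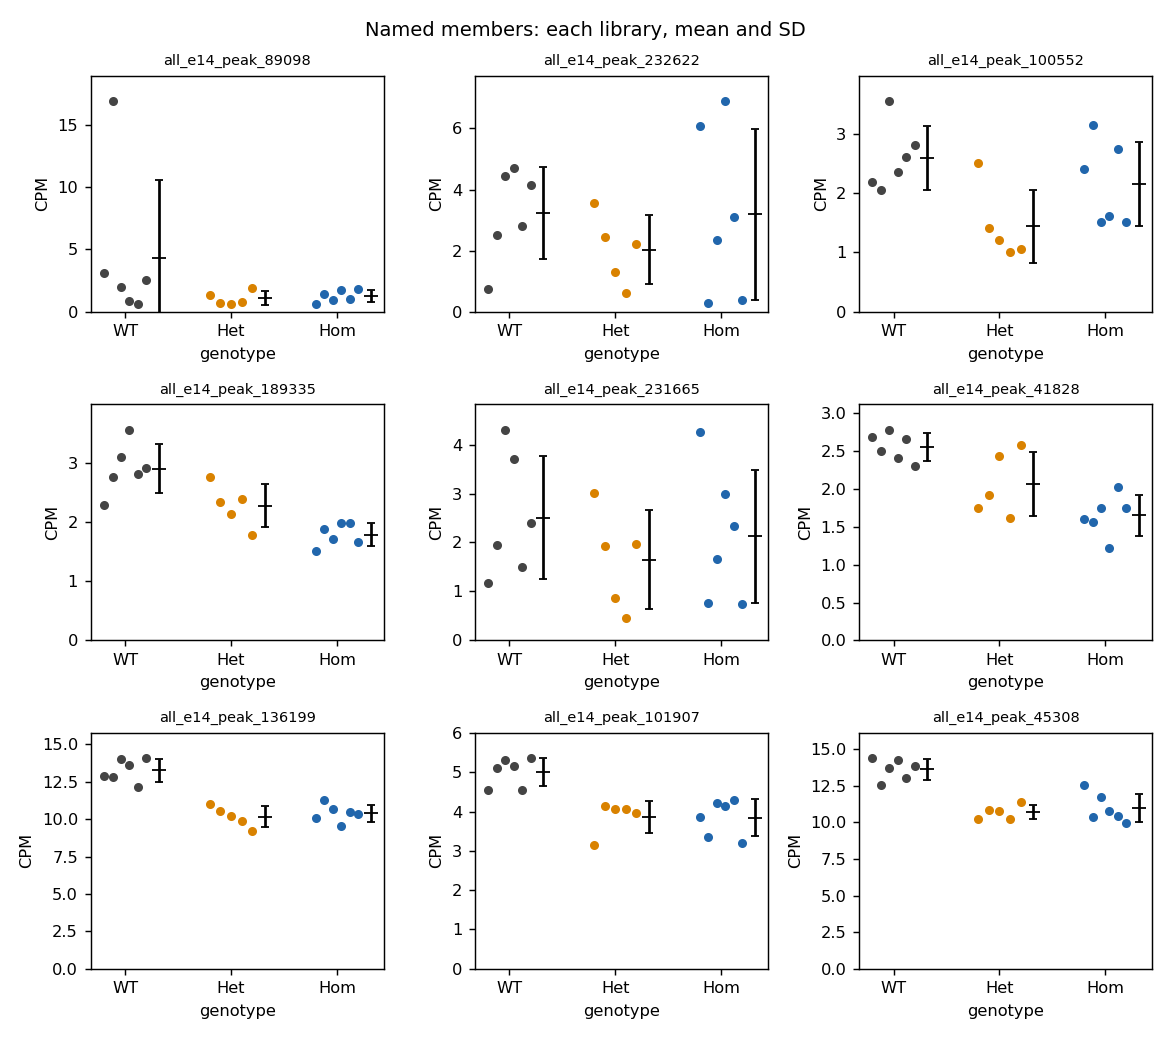
CPM (vertical axes, from 0) at the 9 members named in the text, by genotype (horizontal axes). Points are libraries, in the order of replicate numbers, and black marks are means with SD; the lower SD bar of all_e14_peak_89098 runs below the axis. WT and mutants separate at all_e14_peak_136199 and all_e14_peak_101907, while 1 WT library at 16.9 CPM stands alone at all_e14_peak_89098.

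Tested one by one with limma over all 138760 regions with at least 1 CPM, a limited share of the members passed. All 308 entered this test. In Het against WT 28 members (9.09%) were called lower at a Benjamini-Hochberg adjusted p under 0.05, against 0.819% of all regions, and 268 had an unadjusted p under 0.05, against 9.58% of all regions lower at that level. The 28 had falls of 0.35 to 0.91 log2 in Het (median -0.53) and a median Hom difference of -0.33. At 19 of them all Het libraries lay below all WT libraries, against 1.53% of all regions tested. The rule and the call both used Het against WT, so that count describes the choice. In Hom against WT 0 members were called, as were 0% of all regions. There, 272 members had an unadjusted limma p under 0.05, against 5.04% of all regions lower at that level, and the smallest adjusted p among members was 0.157. Both counts rest on the contrasts that chose the members and nothing is read from them.

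The Het count depended on single libraries. Leaving out Het replicate 34 gave 6 calls, and the counts for Het replicates 49, 64 and 31 were 12, 13 and 18. Leaving out WT replicate 25 gave 9, and the counts for WT replicates 43 and 57 were 11 and 18. In 3 directions among the libraries within genotypes the table held almost no variation, 0.0121 to 0.0157 log2 (root mean square) against 0.266 to 0.324 in the other 11, and these are taken as what the authors' adjustment removed. With them as covariates, which takes up 3 residual degrees of freedom, 5 members were called in Het. The main fit counts these 3 degrees of freedom as if they held spread, so its p-values may be too small. The share of all regions called in each of these settings is not set beside these counts. Whether the losses are particular to the members was therefore not tested.

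Hom and Het were close to each other at most members. Hom minus Het had a median of 0.02 log2 over the members and 0.01 over all tested regions, and it stayed within 0.1 log2 at 213 of 308 members (69.2%). Its quartiles were -0.03 and 0.08 log2 at members, and -0.09 and 0.10 over all regions at 2 to under 20 CPM. The fall was smaller in Hom than in Het at 189 members and larger at 119. In the direct comparison, 0 members were called with limma, against 0.0209% of all regions, and 4 (1.30%) had an unadjusted p under 0.05, 3 of them higher in Hom, against 11.3% of all regions. This contrast is the difference between the 2 differences in the rule, which asks that both be low, so it is a description too. A p that misses the threshold does not show that the genotypes were alike, and the median SE of Hom minus Het at members was 0.15 log2.

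The rule did not use the differences between litters within a genotype, so these were tested. Between litters, 0 members were called with limma, as were 0% of all regions, and 1 member (0.325%) had an unadjusted p under 0.05, against 0.223% of all regions. Of this contrast 64.9% lies in the 3 directions of least variation, which limits what it can show. For this share, the directions were taken after centring on the mean of all libraries, and not within genotypes as for the covariates. For a Het effect that differed between litters, 0 members were called, against 0.00144% of all regions, and 18 members (5.84%) had an unadjusted limma p under 0.05, against 4.72%. For a Hom effect that differed between litters, 0 members were called, against 0.000721%, and 13 (4.22%) had an unadjusted limma p under 0.05, against 5.86%. Each share is near its background. Without WT replicate 25, 1 member was called for the Hom effect, and with the removed directions as covariates 1 was called between litters. The 3 directions of least variation, centred on the mean of all libraries, hold 20.1% of the Het and 13.9% of the Hom contrast between litters.

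Within the litters, the members' median Het difference was -0.37 log2 in litter 1 and -0.43 in litter 2, and the Hom difference -0.35 and -0.41. Both differences were below 0 in litter 1 at 303 members and in litter 2 at 294, and both passed the threshold in litter 1 alone at 148 and in litter 2 alone at 180. The rule used the libraries of both litters, so these values are a description.

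To read the same measure in libraries that did not take part in the choice, the rule was applied again with each library left out in turn, and the left-out library was set against the mean of the other 16 at the regions so chosen. That mean weights all libraries alike and holds more mutant than WT libraries. A given difference between WT and mutants would therefore set a left-out WT library further from it than a left-out mutant library. The left-out values of WT are thus not on the same scale as those of Het and Hom. Between 290 and 431 regions were chosen each time, and 220 to 280 of them were among the 308 members.

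Left-out WT libraries stayed higher, but by much less than in the libraries used. Their medians were 0.07 log2 in replicate 10, 0.04 in 13, 0.17 in 25, 0.08 in 43, 0.06 in 46 and 0.05 in 57, a mean of 0.0786 ± 0.0479 (SD, n = 6). The WT libraries used in the same choices had a mean of 0.261 log2, and over all regions at 2 to under 20 CPM the left-out WT libraries had a mean of 0.0114. All 6 lay above their own value over all regions, and replicate 25 lay apart from the other 5.

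Left-out Het libraries stood at 0.03 log2 in replicate 27, -0.03 in 31, -0.09 in 34, -0.11 in 49 and -0.04 in 64, a mean of -0.0492 ± 0.0555 (SD, n = 5) against -0.153 in the Het libraries used. All but replicate 27 lay below their value over all regions. Left-out Hom libraries ran from -0.01 to 0.03 log2, a mean of 0.0119 ± 0.0161 (SD, n = 6) against -0.128 in the Hom libraries used. Over all regions the left-out Hom libraries ran from -0.01 to 0.02 log2, and 3 of the 6 lay above their own value there. Left-out Hom libraries thus lay around their own values over all regions, and not below them as the libraries used did. The authors' adjustment was made over all 17 libraries together, so a left-out library is not independent of the others.

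**Figure D4:**
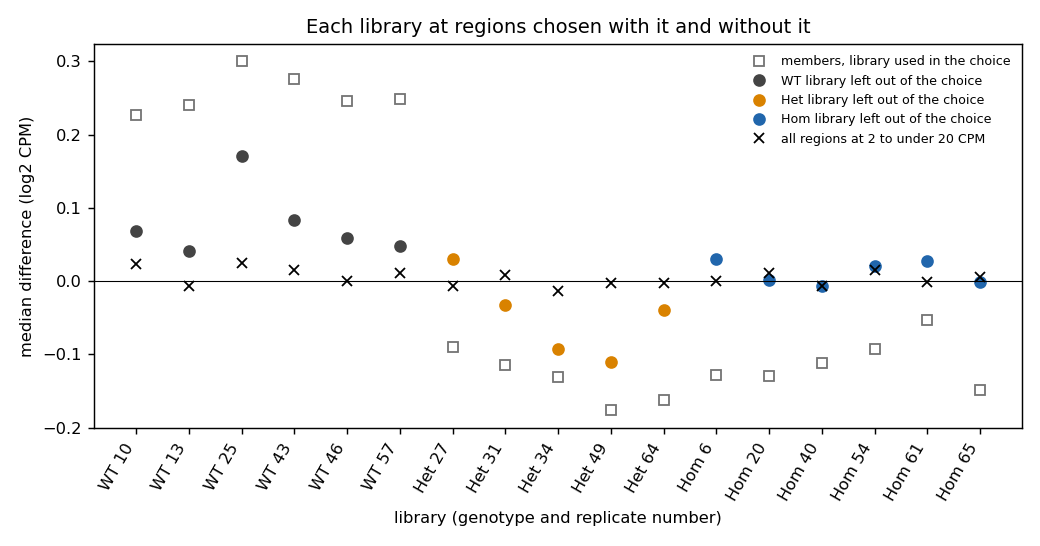
Median difference (vertical axis, log2 CPM) in each of 17 libraries (horizontal axis). Open squares show the 308 members in a library that took part in the choice, filled points show the same library left out, at the regions chosen by the other 16, and crosses show all regions at 2 to under 20 CPM. Filled points stay at 0.04 to 0.17 in WT, at -0.11 to 0.03 in Het and at -0.01 to 0.03 in Hom.

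The litters gave a like picture. The rule applied to litter 1 alone chose 601 regions with median differences of -0.40 log2 in Het and -0.37 in Hom. In litter 2 the same regions had medians of -0.10 and -0.05, against -0.01 in both comparisons over all regions of the range. Both thresholds were met again in litter 2 at 53 of them (8.82%), against 2.95% of all regions of the range. Applied to litter 2, with 2 libraries per genotype, the rule chose 2361 regions with medians of -0.42 log2 in Het and in Hom. In litter 1 these had medians of -0.08 and -0.04, against -0.01 over all regions in both comparisons, and 50 (2.12%) met both thresholds again, against 0.726%. In each litter Het and Hom share the WT libraries, so the 2 medians and the shares that meet both thresholds are not independent of each other. The shares over all regions are not matched for level. With all libraries, members made up 0.908% of regions at 2 to under 3 CPM and 0.377% of those in the whole range. How much of the higher shares goes with level was not tested.

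Members also differed among themselves in their spread within genotypes, which the rule did not use. The SD of a member within genotypes had a median of 0.24 log2, against 0.18 over all regions at 2 to under 20 CPM. Within the lowest class of levels, 2 to under 3 CPM, the medians were close, 0.27 for members and 0.26 for all regions. A small group of 10 members stood apart with SDs of 0.90 to 1.49 log2, while none of the other 298 exceeded 0.54. In the range, 66 regions had an SD of at least 0.6 log2. The first direction of variation within genotypes held 45.3% of the variance over all members, 15.0% over the 298 and 11.9% over all regions of the range.

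Of the 10 variable members, 8 had nearby numbers, from 231665 to 232622, and were low in the same 4 libraries. What the order of the numbers stands for is not given. Their median level was 0.861 CPM in WT replicate 10, 0.633 in Het replicate 49, 0.430 in Hom replicate 20 and 0.527 in Hom replicate 65, while the other 13 libraries had medians of 1.55 to 6.05 CPM. In this span of numbers, 14 of the 370 regions at 2 to under 20 CPM had an SD within genotypes of at least 0.6 log2. The 4 libraries were taken as low because their median over the same 8 members was under 1 CPM. They lay below all 13 others at 7 of the 8 members, which follows in part from that choice. The low libraries were thus 1 of 6 WT, 1 of 5 Het and 2 of 6 Hom, and they came from both litters. The Het difference of the 8 members ran from -0.74 to -0.34 log2 and the Hom difference from -0.61 to -0.35. At all_e14_peak_232622, the second member of the set by the smaller of its falls, WT ran from 0.760 to 4.71 CPM, the Het libraries measured 3.56, 2.43, 1.32, 0.608 and 2.23 CPM, and Hom ran from 0.304 to 6.89. Means were 3.23 ± 1.51 CPM in WT (SD, n = 6) and 3.18 ± 2.78 in Hom (n = 6), nearly the same on this scale, although the mean log2 values differed by -0.61 (SE 0.48, limma adjusted p = 0.731). The Het difference was -0.69 (SE 0.51, limma adjusted p = 0.529). At all_e14_peak_231665, which stood second highest in Hom against Het, the WT libraries ran from 1.16 to 4.31 CPM, the Het libraries measured 3.01, 1.93, 0.861, 0.456 and 1.98 CPM, and Hom ran from 0.752 to 4.26. Hom minus Het was 0.37 log2 (SE 0.36, limma adjusted p = 0.742), and -0.02 without Het replicate 49. At both regions all genotypes overlapped.

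**Figure D5:**
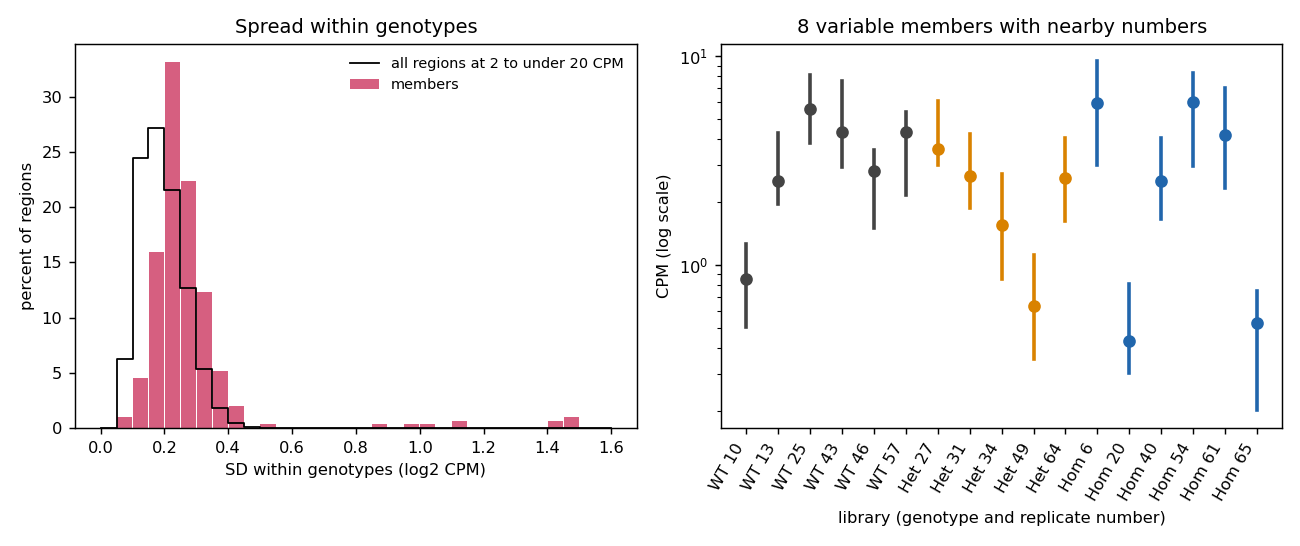
Left, the SD within genotypes (horizontal axis, log2 CPM) as the percent of the 308 members (bars) and of all regions at 2 to under 20 CPM (line). Right, CPM on a log scale (vertical axis) in each library for the 8 variable members numbered 231665 to 232622, with the median as a point and the range as a line. WT 10, Het 49, Hom 20 and Hom 65 have medians under 1 CPM.

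Without the 10 variable members, the medians of the remaining 298 were -0.37 log2 in Het and -0.35 in Hom, with all of them past the threshold by the rule. With all 308 counted, members lay in all parts of the numbering. From 52 to 76 fell in each of 5 equal spans of the region numbers, or 0.334% to 0.433% of the regions of the range there. A member stood next in number to another member in 8 of 308 cases (2.60%), 4 of them in the variable group. Within 10 numbers of another member lay 22 (7.14%), 8 of them in the variable group. In the mirror set of regions higher in both mutants 2.40% stood next to another of that set. That set is larger, with 707 regions, so its share is no background for the members. A background over all regions of the range was not computed.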

How the data were processed

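The authors deposited 1 table per tissue, titled as CPM after RUVr, a method that removes unwanted variation estimated from residuals. The deposited values are taken as log2 CPM, since negative values occur and their antilogs sum to 988155 to 1045790 per library. The upper quartile was 4.61 CPM in every library, so the libraries share an upper quartile and not a sum. Per the submitters' processing notes, reads were processed against mm10, and Trimmomatic, Bowtie2, STAR and HTSeq are named without role or version. The sources used here give no peak caller, transposase shift or number of RUVr factors. Only the E14.5 table was analysed, and the adult table was only counted. The tolerance for a value on the grid was 0.1 of a step, and 100% of values met it.

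Groups came from the titles. The tool was limma 3.58.1 in R 4.3.3, fitted to the deposited values with an empirical Bayes trend, over the 3 genotypes together and over regions whose mean reached 1 CPM. Litter and its interactions with genotype were fitted in models with genotype. The limma step was tested on simulated data with independent noise in each library. These lack the removed directions, so the test cannot check the degrees of freedom or the p-values on the deposited values. Alternatives were other filters, pseudocounts of 0.5 and 2 CPM added to the deposited values, quantile normalization, removal of each library's trend with level, robust moderation, litter as a block, single litters and leaving out each library. Replicate numbers are not shared between genotypes. Library correlations within genotypes were 0.957 to 0.983.

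The members and lists were chosen with earlier results of these data known. Regions were named by rule: the 2 largest falls in Het, in Hom and in the smaller of both, and the 2 highest and lowest in Hom against Het; 3 others are marked as chosen afterwards. Members called between litters would have been named, and there were none.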

Additional observations from a re-analysis of the deposited data

Results flagged for a closer look

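In 33 groups of 5 or 6 libraries, covering the 9 named members and the library medians, 3 held a library far from the rest of its group. Independent groups not chosen by their values would give about 1.65. These groups share libraries and most are of members named for their values, so that figure is no background for them. At all_e14_peak_232622, WT replicate 10 measured 0.760 CPM, the lowest of the WT libraries. At all_e14_peak_101907, Het replicate 27 measured 3.16 CPM, the lowest Het library. Among left-out WT libraries, replicate 25 was the highest, at 0.171 log2 above the mean of the other 16 libraries.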

How the results depend on the processing

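The number of members stayed within 1.5 times of 308 in 20 of 27 settings, the range without single libraries being 290 to 431. It was 104 with a pseudocount of 0.5 CPM and 3 with 2 CPM, which shrink differences at low levels by construction, 1928 with a threshold of -0.2 and 39 with -0.4. With medians over libraries it was 499 (187 of them among the 308), in litter 1 alone 601 (147) and in litter 2 alone 2361 (171). Adjusted for litter it was 307, of which 302 were members.

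The number of members called in Het stayed within 1.5 times of 28 in 17 of 28 settings. It was 43 with a filter of 2 CPM, 5 with the removed directions as covariates, 2 in litter 1 alone and 1 in litter 2 alone, and ran from 6 to 37 without single libraries. Shares of all regions called in the other settings are not given, so these changes are not shown to be particular to the members. In litter 2 alone 1 member was called in Hom. With the removed directions as covariates 1 was called between litters, and without single libraries 0 to 1 for a Hom effect that differed between litters. With a threshold of -0.4 the mean of left-out libraries was 0.00940 log2 in Het and 0.0557 in Hom, over at most 56 regions. Of 616 values of named members under other settings, 601 kept their direction and call, 11 lost a call, 3 gained one and 1 changed sign. The sign changed at all_e14_peak_231665 in Hom against Het, which ran from -0.023 log2, without Het replicate 49, to 0.66 without single libraries. Only the Het differences at all_e14_peak_136199, all_e14_peak_45308 and all_e14_peak_100552 were called in the main fit, and the 11 losses fell on these. Most of the 601 had no call to lose. The genotypes share no replicate number, so no pairing by number was made; with litter as a block, 22 members were called in Het, 0 in Hom and 0 in Hom against Het, and no call of a named member changed. The unknown read depth limits what can be said of members near 2 CPM.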
